A study of Mus musculus with 6 samples.

Results

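The core of endoplasmic reticulum (ER)-associated degradation, abbreviated ERAD, was taken as 10 genes: Derl1, Derl2, Derl3, Edem1, Edem2, Edem3, Sel1l, Syvn1, Herpud1 and Os9. They were found by their annotated gene symbol, and all 10 were measured, out of 18193 genes in the whole data set. They were represented by 24 of 45037 probe sets, a probe set being a group of short array probes summarised into a single value for a transcript. Bone marrow plasma cells (B220- CD138+ by sorting) were compared with naive follicular B cells from spleen (B220+ CD23+), with 3 Affymetrix arrays for each, all from the C57BL/6 strain. Plasma cells came from mice boosted 7 days earlier with KLH, a protein antigen, were enriched with magnetic beads against CD138 before the sort, and gave RNA from 50000 to 70000 cells per array. The B cell arrays used 2000000 to 3000000 cells, and no boost is stated for them. Organ, boost, bead enrichment and cell input therefore cannot be told apart from cell type, and the sources used here do not give the age of the mice.

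ERAD removes misfolded proteins from the ER and delivers them to the proteasome in the cytosol. The EDEM proteins trim mannose from the glycans of misfolded glycoproteins, and the lectin OS-9, encoded by Os9, reads the trimmed glycans and hands the client to the membrane adaptor SEL1L. SEL1L holds the ubiquitin ligase HRD1, encoded by Syvn1. The derlins, membrane proteins of the rhomboid fold without protease activity, take part in moving clients across the membrane, and HERP, encoded by Herpud1, organises the complex. The pathway is known as an arm of the unfolded protein response, whose factors XBP1 and ATF6 switch on many of its genes, and professional secretory cells such as plasma cells are known to depend on it.

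All 10 genes rose in plasma cells. The gain was uneven: Derl3 had a log2 fold change of 5.95 and Edem2 of 3.26, while Derl2 had 0.88 and Syvn1, the ligase itself, had 0.63. Each gene was represented by its brightest probe set and tested with limma on log2(intensity + 16), its p-values adjusted by Benjamini-Hochberg across all genes, and called at an adjusted p of 0.05 or less. By that rule 10 of 10 members were called higher and 0 lower, where 17.6% of all genes were called higher and 12.3% lower. Of genes at least as bright on average as the dimmest member, 24.8% were called higher. The median log2 fold change was 1.6 over the members and -0.06 over all genes. Of the 10 members 8 were both called and at least 2-fold higher, as were 10.9% of all genes. The plasma cell arrays lay above the B cell arrays without overlap for all 10 members, as they did for 25.4% of all genes. In bulk RNA of sorted cells, more transcript per cell and a larger share of cells with the transcript cannot be told apart. The labels do not tie the arrays to individual mice, so the p-values speak only to the spread among these arrays. That spread may be technical, except that sex-linked genes set B cell array 1 apart from B cell arrays 2 and 3, as given below.

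**Figure D1:**
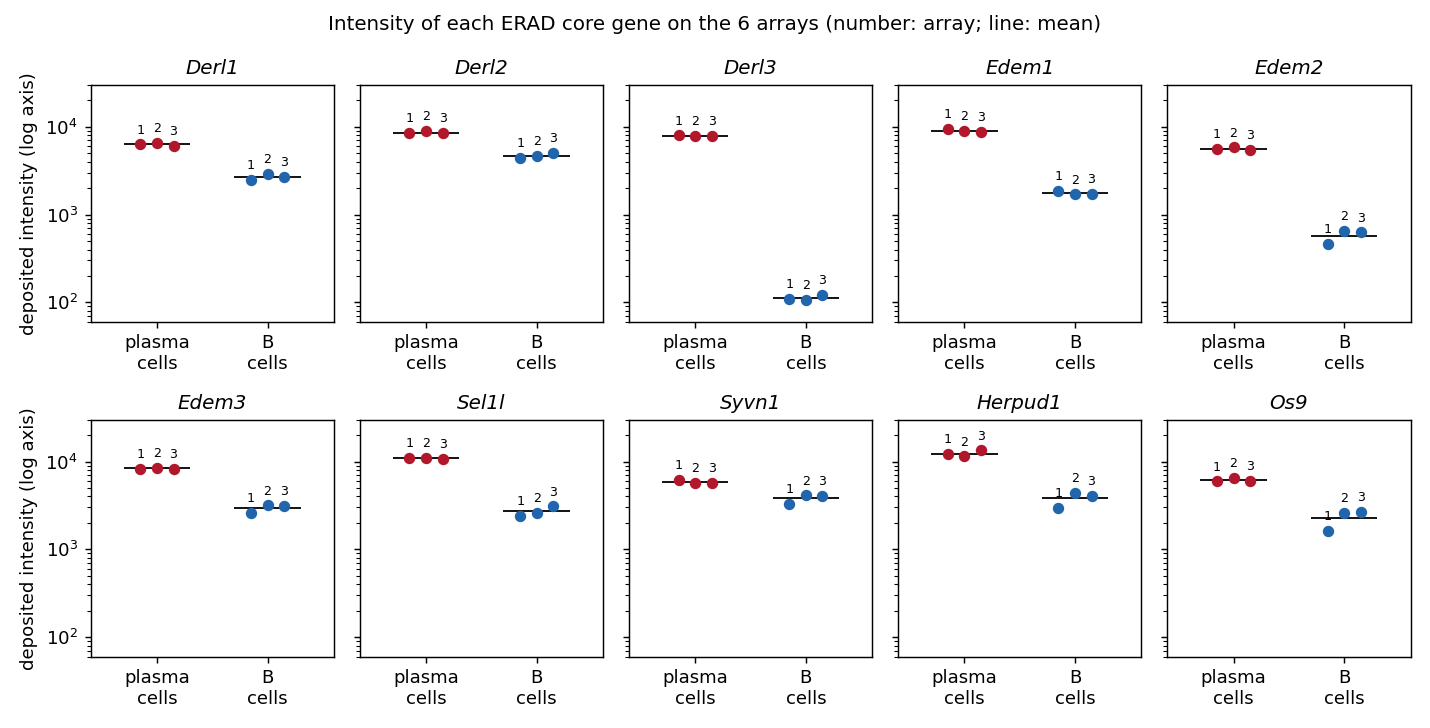
Deposited intensity on a log axis for each of the 10 genes, by its brightest probe set, on the 3 plasma cell arrays (red) and the 3 B cell arrays (blue). Points are arrays, numbered by replicate, and lines are means. No plasma cell array overlaps a B cell array for any gene, and the gap is widest for Derl3 and narrowest for Syvn1.

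The arrays were checked against markers of the sorted cells and of other cell types. All 8 measured plasma cell markers were called higher and all 7 measured B cell markers lower in plasma cells, among them the sort markers Sdc1 (CD138) and Fcer2a (CD23). B cell array 1 stood apart: its Pearson correlation with the other B cell arrays was 0.934 and 0.926 across probe sets, against 0.992 between those arrays. Its summed intensity of 7 T and NK cell markers was 4620, against 204 and 253 on B cell arrays 2 and 3 and between 864 and 1578 on the plasma cell arrays. Of these markers 1 was called higher and 0 lower. That was Cd4, with 311, 393 and 459 in plasma cells, against 23.8, 13.3 and 14.3 in B cells. For 8 granulocyte markers, with 1 called higher (Mpo) and 0 lower, the sum lay between 8473 and 20037 in plasma cells. It was 12591, 2779 and 1786 on B cell arrays 1, 2 and 3. For 5 erythroid markers, with 0 called in either direction, the sum lay between 213 and 543 in plasma cells. It was 1412, 82.1 and 107 on those B cell arrays. The sums of 2 lists of other myeloid cells separated the groups without overlap, though not all their genes moved in the same direction. The sum of 7 monocyte and macrophage markers lay between 1809 and 2253 in plasma cells, against 3624 to 5467 in B cells, with 1 called higher and 3 lower. That of 6 dendritic cell markers lay between 5595 and 6705 in plasma cells, against 1485 to 1740 in B cells, with 2 called higher and 1 lower. Bst2 alone made up 4804 to 5453 of it in plasma cells, against 786 to 1131 in B cells. The separation of this sum therefore rests largely on 1 gene. Flt3 was the other gene called higher and Zbtb46 the lower one. For 8 stroma and endothelium markers the sums overlapped, at 1423 to 1603 in plasma cells, against 1462 to 2133 in B cells, with 1 called higher and 1 lower. Cdh5 was the higher one, with 505, 539 and 426 in plasma cells, against 80.6, 115 and 80.5 in B cells, and Pecam1 the lower one. Xist was high on all 3 plasma cell arrays and B cell array 1 and near background on B cell arrays 2 and 3. The Y-linked genes Kdm5d, Eif2s3y and Uty went the other way, with Kdm5d at 3.57, 1507 and 1576 on B cell arrays 1, 2 and 3. Without B cell array 1 sex therefore goes with cell type. The part of these markers in the results was not tested. Of the 10 members 8 had their lowest B cell value on array 1, and the matching share of all genes was not computed. The 10 differed there from the mean of arrays 2 and 3 by a log2 difference between -0.68 (Os9) and 0.12 (Edem1). The median of this difference was -0.26 over the members and -0.01 over all genes. Of 18193 genes, 2709 were at least 2-fold higher on array 1 and 818 at least 2-fold lower, with 0 members in either direction. Without B cell array 1 all 10 were still called higher, where 22.7% of all genes were (4121 higher and 3830 lower, against 3193 and 2246 with it), and their log2 fold changes lay between 0.53 (Syvn1) and 5.94 (Derl3).

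The starts of the members were searched for the ER stress response elements, the sequences that ATF6 and XBP1 are known to bind, because the members moved in the same direction. RefSeq windows of 300 bases on GRCm38.p6, from 250 before to 50 after an annotated start, were found for 9 members, all but Derl1. ERSE was searched as CCAAT, 9 bases of any kind and CCACG, ERSE-II as ATTGG, 1 base of any kind and CCACG, and the letters CCACGT on their own, each on both strands. ERSE-II followed by T contains CCACGT, so these matches can overlap. ERSE was matched in Derl3 and Syvn1, that is 2 of 9 members, against 0.14% of the 27025 genes in the table. ERSE-II was matched in Herpud1, 1 of 9 members, against 0.04% of all genes. The letters CCACGT were matched in Derl3, Edem3, Herpud1 and Os9, 4 of 9 members, against 9.4% of all genes. Of the other ERAD genes described below, 37 had a window, with 0 matches to ERSE, 0 to ERSE-II and 9 (24.3%) to CCACGT. Of the regulators 5 had a window and 0 matched any of the 3. The 3 windows with an ERSE or ERSE-II match are shown 5′ to 3′ along the gene, with the fixed letters of each match in capitals.
Derl3, chr10:75893148-75893447, plus strand: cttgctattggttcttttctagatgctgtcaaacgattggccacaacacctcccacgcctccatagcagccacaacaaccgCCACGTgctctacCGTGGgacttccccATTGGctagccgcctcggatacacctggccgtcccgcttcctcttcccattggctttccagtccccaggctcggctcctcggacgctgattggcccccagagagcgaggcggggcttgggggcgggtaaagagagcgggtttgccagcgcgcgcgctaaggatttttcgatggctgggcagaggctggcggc
Syvn1, chr19:6046326-6046625, plus strand: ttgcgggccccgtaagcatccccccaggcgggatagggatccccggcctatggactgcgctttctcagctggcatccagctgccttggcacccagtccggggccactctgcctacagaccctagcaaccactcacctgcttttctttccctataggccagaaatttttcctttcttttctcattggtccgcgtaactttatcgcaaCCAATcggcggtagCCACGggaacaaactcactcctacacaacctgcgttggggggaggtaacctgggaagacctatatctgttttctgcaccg
Herpud1, chr8:94386179-94386478, plus strand: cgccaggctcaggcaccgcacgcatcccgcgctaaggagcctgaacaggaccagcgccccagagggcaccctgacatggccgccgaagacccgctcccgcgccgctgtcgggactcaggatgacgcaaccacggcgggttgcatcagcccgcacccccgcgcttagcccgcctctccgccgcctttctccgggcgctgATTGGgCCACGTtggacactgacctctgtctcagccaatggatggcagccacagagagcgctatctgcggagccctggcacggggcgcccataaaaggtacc
In Derl3 the ERSE lay on the opposite strand from -156 to -138, counted from the start, beside a CCACGT from -169 to -164. In Syvn1 the ERSE lay from -44 to -26 and in Herpud1 the ERSE-II from -52 to -42. The members with these matches had the largest, the smallest and an intermediate log2 fold change, 5.95 for Derl3, 0.63 for Syvn1 and 1.71 for Herpud1. Of the other genes with an ERSE match, 18 were measured, of which 7 were called higher and 1 lower, and of those with ERSE-II 8 were measured, of which 5 were called higher and 1 lower. Of those with CCACGT 1714 were measured, of which 385 (22.5%) were called higher and 228 lower, with a median log2 fold change of -0.01. Over all genes 17.6% were called higher and 12.3% lower. A match is a run of letters and not a measured binding site.

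Among the genes that select glycoproteins for disposal, Edem1, Edem2 and Edem3, which encode the mannose-trimming EDEM proteins, all rose. Edem2 had intensities of 5545, 5829.7 and 5424 in plasma cells, against 459, 648 and 626 in B cells (3.26 ± 0.17 SE as a log2 fold change, adjusted p = 9.52e-05). Edem1 had 9386, 8899 and 8710.2 in plasma cells, against 1863, 1700.2 and 1715 in B cells (2.34 ± 0.11, adjusted p = 8.32e-05). Edem3 had 8317, 8514 and 8223 in plasma cells, against 2586, 3168 and 3116 in B cells (1.5 ± 0.13, adjusted p = 0.000548). On the log2 scale the B cell arrays spread more than the plasma cell arrays in each, though only slightly in Edem1 (SD 0.072 against 0.055). B cell array 1 was the lowest of the B cell arrays for Edem2 and Edem3 and the highest for Edem1. Os9, the lectin that receives their products, had 5934, 6561 and 6025 in plasma cells, against 1631, 2581 and 2680.4 in B cells (1.45 ± 0.22, adjusted p = 0.00424). Its B cell values were the most uneven of the 10 members, with an SD of 0.396 on the log2 scale, and its log2 fold change was 1.22 without B cell array 1.

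Probe sets changed the picture within this group. The other Edem1 probe set, 1424065_at, had 11109.8, 11034 and 10645 in plasma cells, against 626, 856 and 818 in B cells, a log2 fold change of 3.82 ± 0.16 in the fit across all probe sets, in which p-values are adjusted over probe sets. By that probe set Edem1 had a larger log2 fold change than Edem2. The other Edem2 probe set, 1444335_at, was dim, at 103, 96.0 and 123 in plasma cells, against 187, 13.8 and 29.9 in B cells (0.91 ± 0.69, adjusted p = 0.388). It was over background on 2 of 3 B cell arrays, its groups overlapped because B cell array 1 was above every plasma cell array, and it was not called. The probe sets of Edem3 had 1.5 and 1.47, and those of Os9 had 1.45 and 2.78.

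Of the 3 members of the ligase complex, Sel1l, Herpud1 and Syvn1, Sel1l had the largest log2 fold change and Syvn1 the smallest. Its brightest probe set had 10923, 11036 and 10717 in plasma cells, against 2393, 2628 and 3079 in B cells (2.01 ± 0.14 SE as a log2 fold change, adjusted p = 0.000225). All 5 probe sets of Sel1l were called higher, but their log2 fold changes ran from 2.01 to 4.94, the widest spread of any member. The one with 4.94, 1430692_a_at, had 6284, 5857 and 5356 in plasma cells, against 117, 216 and 205 in B cells. The one with 4.81 had 2779, 2422 and 2252 in plasma cells, against 54.9, 78.5 and 88.8 in B cells. The rise of the remaining 2 was 3.63 and 3.84. The groups were apart on every one of these probe sets, so the direction did not depend on the probe set while its size did.

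Syvn1, the ligase that SEL1L holds, had 6229, 5773 and 5652 in plasma cells, against 3293, 4119 and 4019.7 in B cells (0.63 ± 0.14, adjusted p = 0.0181). Its other probe set gave 0.65 ± 0.15. The rise was the smallest of the 10 and its call was lost without any 1 of the 3 plasma cell arrays (adjusted p between 0.0526 and 0.0811) and after each array was centred on its median (0.0992). The log2 fold change itself was 0.59, 0.64 and 0.66 without plasma cell array 1, 2 or 3 and 0.75 after the centring. Without B cell array 1 it was 0.53 with an adjusted p of 0.00779. Over all alternatives its adjusted p ranged from 0.00158 to 0.0992.

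Herpud1, the scaffold of the complex, had 12188, 11458 and 13388 in plasma cells, against 2965, 4372 and 4086 in B cells (1.71 ± 0.18, adjusted p = 0.00118). Its second probe set rose by 1.73 ± 0.18 on the log2 scale. The value on plasma cell array 3 lay within 2-fold of the highest value of that array, 26246, the only member probe set so close to the top of the scale.

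The 3 derlins spanned the range of the members almost entirely. Derl3, measured by the single probe set 1453677_a_at, had 7972, 7940.45 and 7958 in plasma cells, against 110.2, 106 and 122 in B cells (5.95 ± 0.11 SE as a log2 fold change, adjusted p = 1.71e-05), and ranked 19 of 18193 genes by log2 fold change. Its means were 7957 ± 15.7 in plasma cells, against 113 ± 8.09 in B cells (SD, n = 3 each), all over the background of the arrays. Derl1 had 6297, 6582 and 6075 in plasma cells, against 2465, 2879 and 2666 in B cells (1.24 ± 0.12, adjusted p = 0.000821). Derl2 had 8449.9, 8951 and 8437 in plasma cells, against 4435, 4612 and 5029.9 in B cells (0.88 ± 0.12, adjusted p = 0.00259). On the B cell arrays the signal of Derl3 was only a few times the background, whose 95th percentile lay between 23.0 and 40.6 there.

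The 4 probe sets of Derl1 were all called higher, 3 of them with log2 fold changes between 1.24 and 1.41. The fourth rose by 3.43 ± 0.26, with 3426, 3590.3 and 3126 in plasma cells, against 198, 391 and 345 in B cells. The second Derl2 probe set, 1435101_at, had 1153, 1060.03 and 991 in plasma cells, against 1049, 884 and 871 in B cells (0.19 ± 0.14, adjusted p = 0.386). Its groups overlapped and it was not called, so the rise of Derl2 rests on a single probe set.

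**Figure D2:**
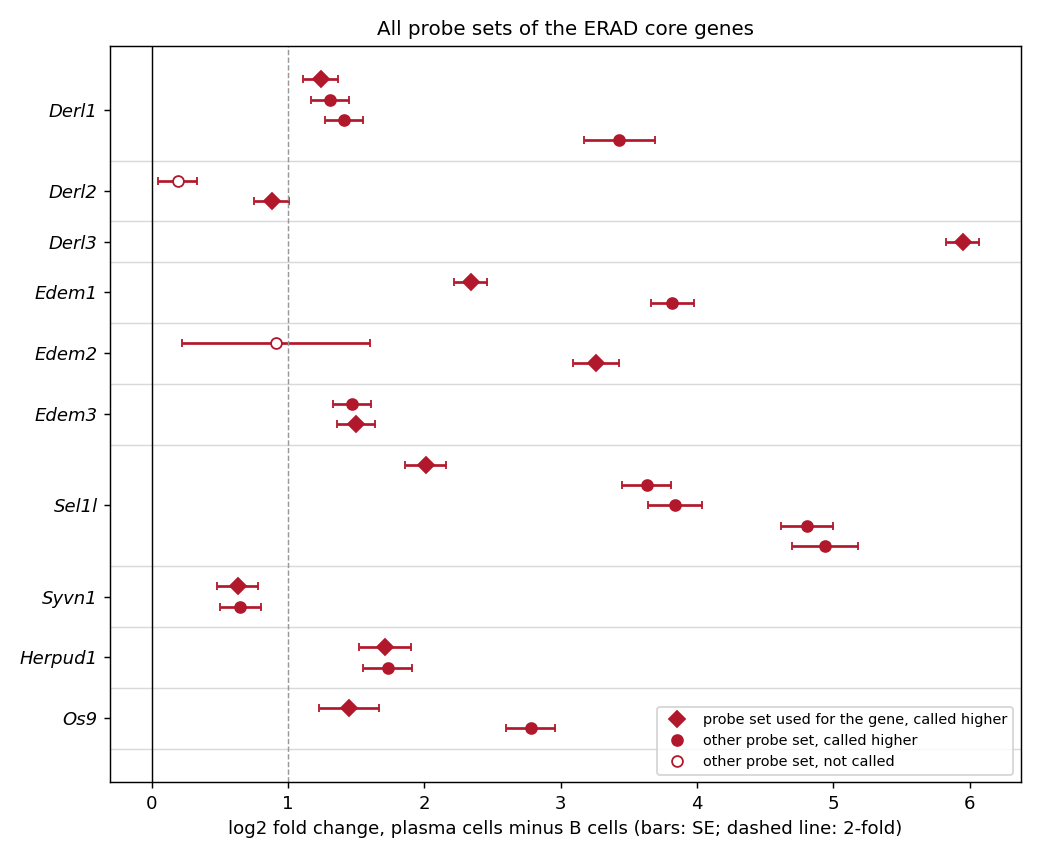
Log2 fold change of plasma cells minus B cells, with its SE, for all 24 probe sets of the 10 genes in the fit across all probe sets. Diamonds mark the probe set used for the gene and open circles the 2 that were not called, and the spread within a gene is widest for Sel1l, from 2.01 to 4.94.

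Across all probe sets of the members, 22 of 24 were called higher and 0 lower, where 13.4% of all probe sets were called higher and 12.8% lower. The same 22 were those whose groups did not overlap with plasma cells above, against 20.8% of all probe sets. In 6 of the 9 members with several probe sets, the brightest had the smallest log2 fold change, by only 0.02 in Syvn1 and Herpud1. The matching share of all genes was not computed. Choosing the brightest by its mean over both groups can itself favour probe sets with high B cell values. The probe sets of Edem3, Syvn1 and Herpud1 agreed within 0.03, and those of Derl1, Edem2 and Sel1l differed by more than 2 on the log2 scale.

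The paralogues were set side by side by the difference of their log2 values on the same array, compared between the groups. This tests whether a pair changed unequally and does not compare their levels, since different probe sets have different brightness. Derl3 minus Derl1 was 0.34, 0.27 and 0.39 in plasma cells, against -4.30, -4.57 and -4.28 in B cells, a difference in log2 fold change of 4.72 ± 0.10 SE. For Derl3 and Derl2 it was 5.08 ± 0.04. Derl2 had a smaller log2 fold change than Derl1, with a difference of -0.36 ± 0.07. The groups were apart for all 3 pairs, and the direction was the same in every combination of their probe sets, 4, 2 and 8 in number, with ranges of 2.53 to 4.72, 5.08 to 5.76 and -3.23 to -0.36.

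Among the EDEM genes, the log2 fold change of Edem2 exceeded that of Edem3 by 1.76 ± 0.06 and that of Edem1 by 0.91 ± 0.20, and that of Edem1 exceeded that of Edem3 by 0.85 ± 0.14. The dim Edem2 probe set 1444335_at, which was not over background on every array, was left out when probe sets were combined, a choice made after seeing the data. Edem2 minus Edem3 was then positive in 2 of 2 combinations (1.76 and 1.79) and Edem1 minus Edem3 in 4 of 4 (0.85 to 2.35). Edem2 minus Edem1 was 0.91 with the brightest Edem1 probe set and -0.56 with the other, so its direction depended on the Edem1 probe set. Each of the 6 pairs had a p of 0.1 in the exact two-sided permutation test over the 6 arrays, also after adjustment over the 6 pairs, which is the smallest value that 3 against 3 arrays allow.

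**Figure D3:**
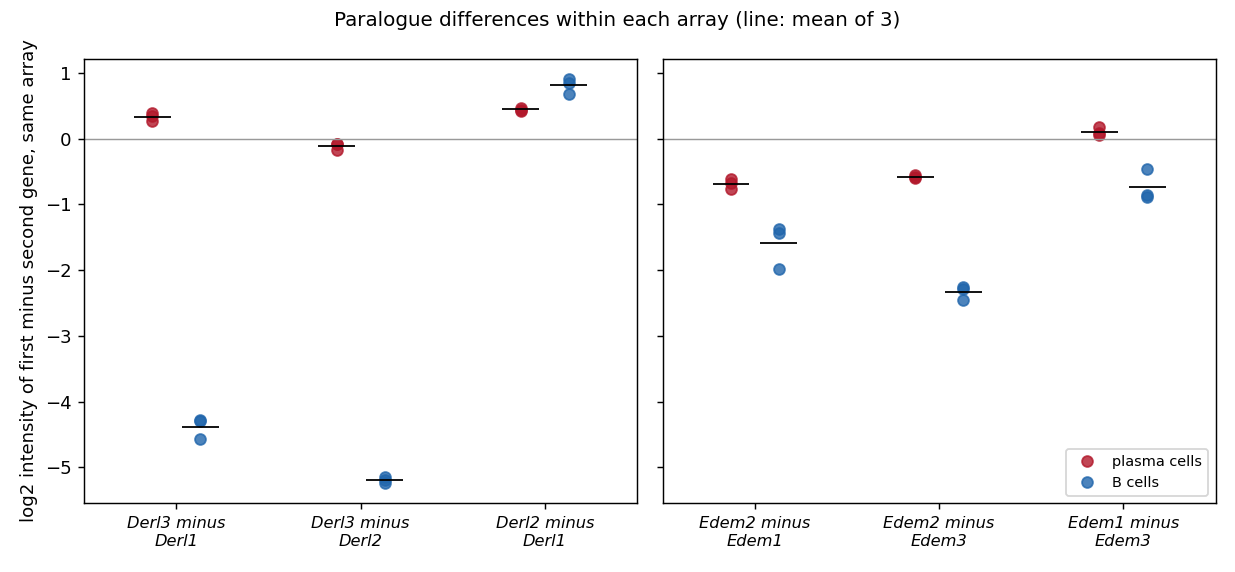
Log2 intensity of the first minus the second paralogue on the same array, for 3 derlin pairs (left) and 3 EDEM pairs (right), in plasma cells (red) and B cells (blue), with lines at means of 3 arrays. Zero does not mean equal transcript levels, and the gap between red and blue is the difference in log2 fold change, 5.08 for Derl3 minus Derl2 and -0.36 for Derl2 minus Derl1.

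The SD of the members over the plasma cell arrays lay between 0.003 and 0.113 on the log2 scale, and that over the B cell arrays between 0.072 and 0.396, with the B cell SD the larger for all 10 members. That was so for 72.9% of all genes and for 79.4% of genes at least as bright as the dimmest member. The 5 genes whose centred profile over the 6 arrays was nearest to that of Derl3 were Prdm1, Selenom, Wipi1, Mgll and Mt1, at Euclidean distances between 0.36 and 0.55 on the log2 scale. Prdm1, which encodes the plasma cell repressor Blimp-1, had 5669, 5105 and 5338 in plasma cells, against 89.3, 83.9 and 96.3 in B cells. Selenom, an ER selenoprotein gene, had 2866, 3498 and 3184 in plasma cells, against 37.0, 46.1 and 39.4 in B cells. Mgll, a lipase gene, did not exceed background on any of the 3 B cell arrays and was at least 75.2-fold higher in plasma cells. That bound and the bound for Fbxo2 below are taken without the added constant, against the background level where a B cell value lay below it.

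Other genes of the pathway moved unevenly. Of 45 genes listed in 6 roles 42 were measured, of which 20 were called higher and 1 lower, where 17.6% and 12.3% of all genes were, with a median log2 fold change of 0.51. The lectins and glycan-trimming genes had 4 of 6 higher and 0 lower, with a median of 1.43. Txndc11, which encodes an EDEM-associated oxidoreductase, had a log2 fold change of 2.55 ± 0.25 (3.26 with its second brightest probe set). Erlec1, a lectin related to OS-9, had 2.49 ± 0.12, and Man1b1, an ER mannosidase gene, had 2.19 ± 0.42. The B cell values of Man1b1 were 423, 1208 and 1204, with array 1 the low one, and its log2 fold change was 1.7 without that array. The call of Erlec1 was lost with its second brightest probe set (-0.25, adjusted p = 0.366, where the alternatives ranged from 2.78e-06 to this value).

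Among accessories of the HRD1 complex 2 of 7 were higher and 0 lower, with a median of 0.16. The selenoprotein genes Selenok and Selenos, which link the complex to p97, were the pair, at 2.11 ± 0.12 and 1.99 ± 0.11. Herpud2, the paralogue of Herpud1, averaged 5300.2 ± 152 in plasma cells, against 4737 ± 93.2 in B cells (SD, n = 3 each), a log2 fold change of 0.16 ± 0.11 that was not called (adjusted p = 0.317). Sel1l2, the paralogue of Sel1l, was over background on 0 plasma cell arrays and 1 B cell array. Herpud2 and Sel1l2 were chosen after their values were seen.

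The other membrane ubiquitin ligases had 3 of 6 higher and 0 lower, with a median of 0.49. These were Trim13 (1.70 ± 0.15), Rnf185 (1.69 ± 0.20) and Rnf5 (1.08 ± 0.11). Of the ubiquitin-conjugating enzymes 2 of 3 were higher and 0 lower, with a median of 1.01. Ube2j1, the membrane-anchored enzyme that works with HRD1, had 5376 ± 87.8 in plasma cells, against 936 ± 20.2 in B cells (2.50 ± 0.11, adjusted p = 5.73e-05), and a log2 fold change of 3.63 with its second brightest probe set. Ube2g2 rose by 1.01 ± 0.17.

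For extraction by p97, the ATPase that pulls clients out of the membrane, 5 of 8 were higher and 0 lower, with a median of 1.11. Vcp, which encodes p97, had 7871 ± 372 in plasma cells, against 3399.6 ± 684 in B cells (1.23 ± 0.18, adjusted p = 0.00403). Rhbdd1, a rhomboid protease gene related to the derlins, rose by 1.75 ± 0.13 and Ubxn4, which recruits p97 to the ER, by 1.29 ± 0.12. In the cytosol, 4 of 12 genes of client escort, deglycosylation and deubiquitination were higher and 1 lower, with a median of 0.12. The glycoprotein-binding F-box genes Fbxo2 and Fbxo6 rose, Fbxo2 at least 3.84-fold from within background on all B cell arrays and Fbxo6 by 1.53 ± 0.28. Ngly1, the glycan-removing enzyme, rose by 1.34 ± 0.14. Atxn3, a deubiquitinase gene, was the only gene of the 6 lists called lower, with a log2 fold change of -0.82 ± 0.15 (adjusted p = 0.00929). Its call was lost after median centring (0.0705) and when all its probe sets were averaged (0.3), and its adjusted p reached 0.717 over the alternatives, with its second brightest probe set. Fbxo6 likewise lost its call in the averaged fit (0.101) and with its second brightest probe set (0.385).

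**Figure D4:**
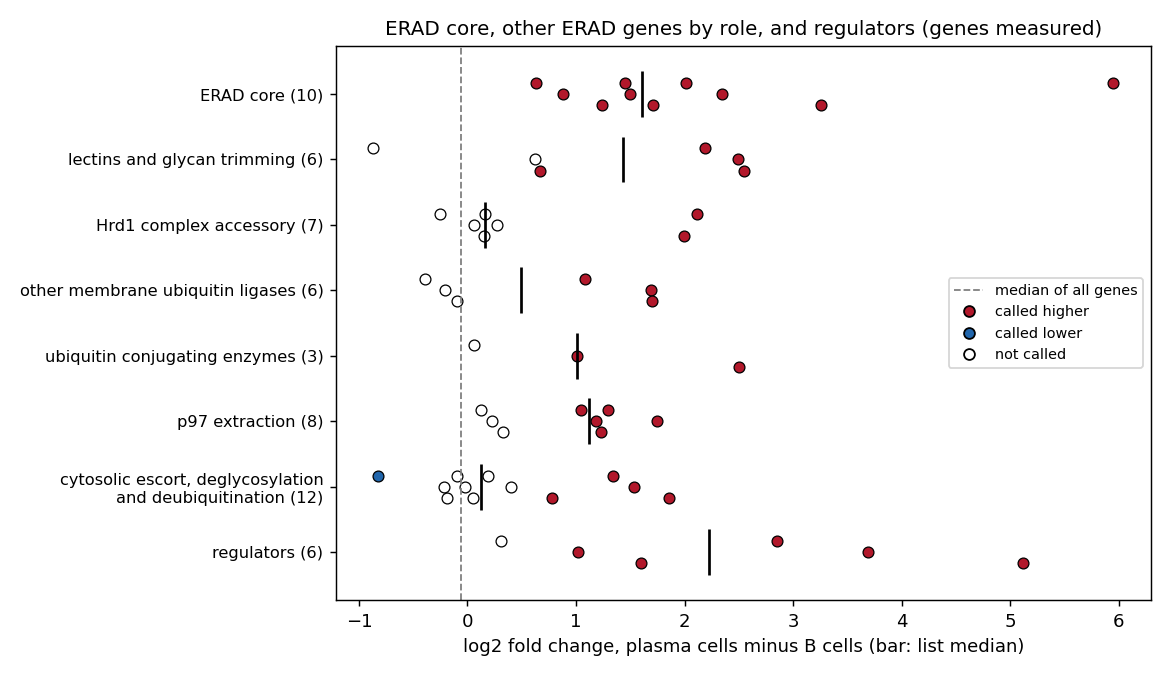
Log2 fold change of plasma cells minus B cells for the 10 core genes, the 42 other measured ERAD genes in 6 roles and 6 regulators, with the number of genes in brackets and the list median as a bar. All 10 core genes and 20 of the 42 others are called higher (red), and the dashed line marks the median of all genes at -0.06.

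Regulators of these genes were set beside them. Xbp1 had 14670 ± 162 in plasma cells, against 2041 ± 283 in B cells (SD, n = 3 each), a rise of 2.85 ± 0.14 on the log2 scale (adjusted p = 9.44e-05), and its splicing was not analysed here. All 3 of its plasma cell values lay within 2-fold of the highest value of the array. Ern1, which encodes the sensor IRE1 that splices it, had 3299 ± 331 in plasma cells, against 249.6 ± 79.9 in B cells (3.69 ± 0.26), and 1.98 when all its probe sets were averaged. Creb3l2, an ER-bound factor of secretory cells, rose by 5.12 ± 0.25, Atf6 by 1.6 ± 0.14 (2.64 with its second brightest probe set) and Atf6b by 1.02 ± 0.19. Atf4, of the PERK branch, had 9111, 9049.8 and 9659 in plasma cells, against 5139, 9031 and 8983 in B cells, with B cell array 1 the low one. It did not pass the test (0.31 ± 0.25, adjusted p = 0.397).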

How the data were processed

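Gene expression was measured on 6 one-colour Affymetrix arrays, 3 per group. RNA was isolated with a micro-scale column kit, amplified with NuGEN Ovation V2 and biotin-labelled, per the labels' protocols. The deposited values are linear intensity values, and the sources used here do not give how the authors summarised, background-corrected or normalized them. Upper quartiles lay between 625 and 684. All columns matched a sample through its name.

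Of 45101 probe sets, 64 were controls, 34945 had 1 gene symbol, 932 several and 9160 none here. Symbols came from the 2016 platform annotation, updated by Entrez identifier against the RefSeq gene table of GRCm38.p6 (34741 matched). Background on an array is the 95th percentile of 27 bacterial control probe sets.

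Each gene was represented by the probe set with the highest mean of log2(intensity + 16). Fold changes are on that scale, which understates those of dim genes. Groups were compared with limma 3.58.1 in R 4.3.3, over 18193 genes and, separately, 45037 probe sets. The procedure was tested on simulated data with the same spread in both groups and no outlying array. That setting differs from these data, in which B cell array 1 stood apart. Paralogue pairs used an exact permutation test (scipy 1.17.1). Precision is limited by the number of arrays. The members, lists and tests were chosen with earlier results of these data known. Named were all members, per role list the 3 called genes with the largest change and every called lower gene, 6 regulators, and the 5 genes nearest to Derl3. Deviations of same-numbered arrays from their group means were hardly correlated (0.048, 0.005 and 0.046). For arrays with different numbers the correlations lay between -0.044 and 0.032. With 3 arrays per group this cannot exclude a pairing, and none was assumed.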

Additional observations from a re-analysis of the deposited data

How the results depend on the processing

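The 10 members were recomputed under 17 alternatives. Of the 10, between 8 and 10 were called higher under each and 0 lower. The exceptions were Syvn1 (median centring, the replicate block and the leaving out of each plasma cell array) and, with the second brightest probe set, an alternative chosen after seeing the data, Derl2 (0.19) and Edem2 (0.91). Median centring moved the median of all genes by 0.12 on the log2 scale. The paralogue difference of Edem2 and Edem1 reversed to -1.0 with the mean of all probe sets and to -2.91 with the second brightest probe set, and that of Edem2 and Edem3 to -0.56 with the second brightest. These values use, in whole or in part, the dim Edem2 probe set that was not over background on B cell array 2, so no order of the genes is read from them. Each measured by its own second brightest probe set, Erlec1 (-0.25), Fbxo6 (-0.29) and Atxn3 (0.22) also changed sign without being called. Over all genes the number called was 5439, 9494 with array weights, in which B cell array 1 weighed 0.0938, and between 3571 (without plasma cell array 1) and 7951 (without B cell array 1) when an array was left out. The calls lower in plasma cells were 2246, against 1243 after median centring, 3830 without B cell array 1 and 4654 with array weights, and the higher ones 3193, against 2588, 4121 and 4840. Higher calls were thus 58.7% of all calls, against 67.6% after median centring. The replicate block gave 4121 genes, 9 of the 10 members and 20 of their 24 probe sets. It is no paired analysis, since the numbers are not shown to pair the samples. Of the 42 other pathway genes between 19 and 28 were called in either direction under the alternatives.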
